A study of Rattus norvegicus with 20 samples.

Results

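The Fos and Jun genes encode the subunits of activator protein 1 (AP-1), and all 7 of them were taken by symbol from the hippocampal RNAseq of female rats: Fos, Fosb, Fosl1 and Fosl2 on the Fos side and Jun, Junb and Jund on the Jun side. They were 7 of 17168 genes in each of the deposited tables, and every one of them had reads in all 20 rats. WTNT rats (n = 5) were wild-type Fischer rats on normal chow. TGNT rats were TgF344-AD rats, which carry human APP and a second human transgene that are both driven by the prion promoter, also on normal chow. TGTR rats (n = 6) were TgF344-AD rats whose chow held diazoxide (DZ, 10 mg/kg body weight per day) and dibenzoylmethane (DIB, 200 mg/kg body weight per day) from day 52 of age. All rats were female and were killed at 4 months of age. The genotype comparison set 5 TGNT against 5 WTNT rats, and the treatment comparison set 6 TGTR against 4 other TGNT rats, with no treated wild-type rats among the libraries. The labels give the left hippocampus and the methods of the study the right one. The study's methods say that rats ran the radial arm maze under food restriction at 4 months before some were taken for RNAseq, and the time from the last maze session to death is not given in the sources used here.

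AP-1 proteins are basic leucine zipper factors that bind DNA as dimers. Fos proteins need a Jun partner, whereas Jun proteins can also pair with one another, and the dimers bind the TPA response element (TRE, TGACTCA) and the related cyclic AMP response element (CRE, TGACGTCA). In hippocampal neurons Fos, Fosb and Junb are immediate early genes: calcium entry and the MAP kinase pathway switch them on within minutes of firing, through serum response factor and CREB at their promoters, and their mRNA decays soon after. Fos is widely used as a mark of recently active cells. Fosb also gives the truncated and long-lived protein ΔFosB, which builds up with repeated activity, while Jund is expressed more steadily and Jun responds to stress as well as to activity. ΔFosB and full-length FosB come from splice forms of one gene, and a value for Fosb here covers both.

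The promoters of 5 members were matched by symbol in the RefSeq table of build GRCr8, which gives 250 bases before and 50 after each gene's start. They are those of Fosb, Fosl1, Fosl2, Junb and Jund. Besides the TRE and the CRE, the letters looked for on both strands were the TATA box TATAAA, the CArG box that serum response factor binds, and the CRE 5-base core TGACG, which lies in every CRE. Of the 33469 promoters of the same length in the table, 1.83% held the CRE, 4.63% the TRE, 1.64% a CArG box, 14.2% TATAAA and 21.2% the core. The promoters of Fosb, Junb and Jund are shown, Fosb and Junb because they are the immediate early members of the 5 and Jund because it alone of the 5 held a full CRE. Capitals mark a CRE or a TATA box, the sequences run 5′ to 3′ along the gene's strand, and Fosb lies at chr1:88089135-88089434 (minus strand), Junb at chr19:40080876-40081175 (plus strand) and Jund at chr16:18769722-18770021 (minus strand).
Fosb: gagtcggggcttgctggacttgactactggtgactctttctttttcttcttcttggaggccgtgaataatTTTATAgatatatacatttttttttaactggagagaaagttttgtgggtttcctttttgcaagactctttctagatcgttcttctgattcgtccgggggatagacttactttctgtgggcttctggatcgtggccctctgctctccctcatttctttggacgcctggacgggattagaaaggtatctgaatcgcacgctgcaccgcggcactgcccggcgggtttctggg
Junb: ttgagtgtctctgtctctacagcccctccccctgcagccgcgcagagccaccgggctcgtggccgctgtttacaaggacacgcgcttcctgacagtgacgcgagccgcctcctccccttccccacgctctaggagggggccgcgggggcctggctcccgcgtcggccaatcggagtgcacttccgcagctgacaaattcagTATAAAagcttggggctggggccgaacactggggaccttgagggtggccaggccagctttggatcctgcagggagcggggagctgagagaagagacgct
Jund: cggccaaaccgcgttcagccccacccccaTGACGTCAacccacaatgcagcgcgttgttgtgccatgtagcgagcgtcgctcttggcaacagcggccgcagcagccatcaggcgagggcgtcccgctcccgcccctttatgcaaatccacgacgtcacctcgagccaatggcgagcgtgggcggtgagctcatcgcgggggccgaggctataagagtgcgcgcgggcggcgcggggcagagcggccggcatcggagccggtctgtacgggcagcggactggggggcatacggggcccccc

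The Jund promoter held a full CRE that began 221 bases before the start, and a further core 98 bases before it. The Junb promoter held TATAAA 49 bases and a core 155 bases before the start. In Fosb the TATA letters were read on the opposite strand, 180 bases before the start. Fosl1 had cores 148 and 84 bases before the start, and Fosl2 had no match. None of the 5 promoters held the TRE or a CArG box within these windows. GC content was 47.7% in Fosb, 62.3% in Fosl1, 65.3% in Junb, 69.7% in Jund and 70.7% in Fosl2, against a median of 51.7% over all promoters. These matches describe the letters of the windows and were not set against the mRNA values.

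Levels are given in RPM, the reads of a gene relative to library size, which the authors scaled with the TMM method to correct for library composition. A single read was worth 0.0705 to 0.171 RPM. The genotype libraries held 5848458 to 9926088 counts and the treatment libraries 9215039 to 14175594. As a check of the genotype labels, App measured 1101 ± 47.5 RPM in WTNT and 2187 ± 122 RPM in TGNT rats (SD, n = 5 each), and its log2 fold change was 1.00 (SE 0.0555, adjusted p = 2.45e-07 by edgeR's quasi-likelihood test with Benjamini-Hochberg adjustment). Levels are compared between rats and not between members, since lengths of the transcripts were not at hand. In whole tissue, fewer cells that express a gene and less RNA of it per cell cannot be told apart.

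Among the 7 members, Fosb had the lowest unadjusted p between transgenic and wild-type rats, and it was lower in every TGNT than in every WTNT rat. No member passed the adjusted test of the genotype comparison, edgeR's quasi-likelihood test fitted to the whole table of 17168 genes, which asked for a Benjamini-Hochberg adjusted p under 0.05 together with a 1.5-fold change or more, and which 0.0116% of all genes passed. At an unadjusted p under 0.05 there was 1 member of 7, Fosb, among the 1.5% of all genes that were lower in TGNT rats at that level, while 1.72% of all genes and 0 members were higher. Of the genes that averaged 10 counts or more, as all 7 members did, 1.9% were lower and 1.99% higher. Of the 7 members 2, Fosl2 and Jun, had a log2 fold change above 0, as did 52.4% of the 11357 genes that averaged 10 counts or more. The other 6 had 95% intervals that included 0.

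**Figure D1:**
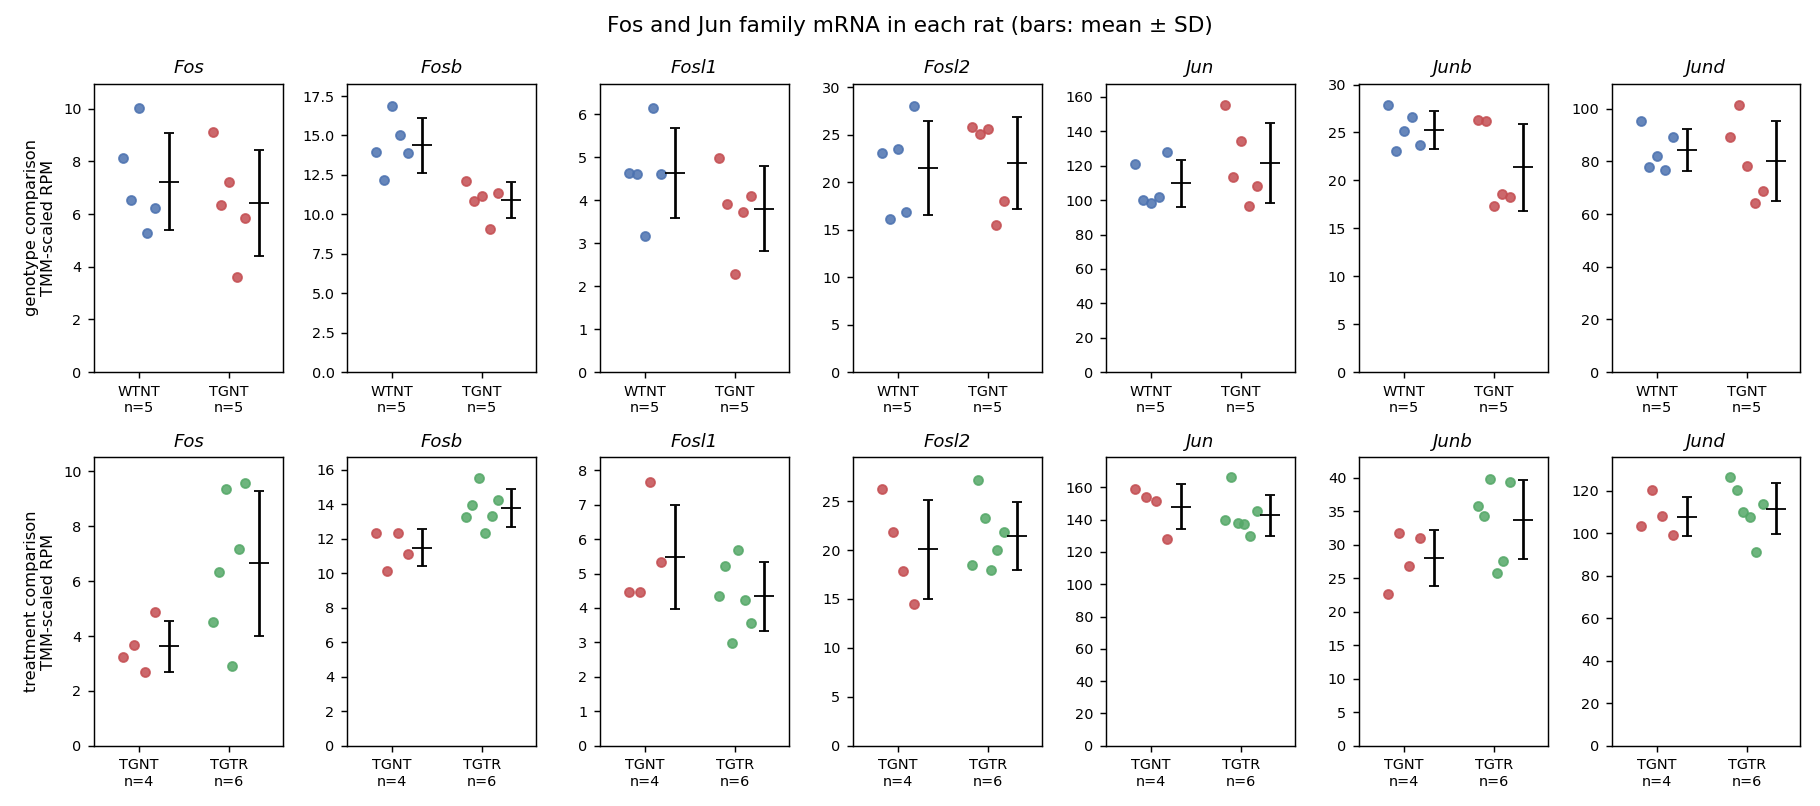
TMM-scaled RPM of the 7 Fos and Jun genes in each rat, in the genotype comparison (top, WTNT blue and TGNT red, n = 5 each) and the treatment comparison (bottom, TGNT red, n = 4, and TGTR green, n = 6). Each point is 1 rat, the bars give the mean ± SD and every vertical axis starts at 0. The Fosb points of WTNT and TGNT rats do not overlap, and 5 of 6 TGTR rats lie above all TGNT rats for Fosb.

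Fosb measured 13.9, 12.2, 16.9, 15.0 and 13.9 RPM in the 5 WTNT rats and 12.1, 10.9, 11.2, 9.08 and 11.3 RPM in the 5 TGNT rats. The groups did not overlap, although the lowest WTNT and the highest TGNT rat were close. Means were 14.4 ± 1.73 and 10.9 ± 1.12 RPM (SD, n = 5 each). The log2 fold change was -0.39 (SE 0.119, 95% interval -0.64 to -0.13, 0.765-fold), with an unadjusted p of 0.00527 and an adjusted p of 1 by edgeR. An exact two-sided permutation test of the RPM gave p = 0.00794, which is the smallest value that 5 rats against 5 can give. Of the 11357 genes that averaged 10 counts or more, 0.317% were lower in TGNT rats with no overlap, or 36 genes, and by unadjusted p Fosb ranked 30 of 17168.

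Fos, the member that rises fastest after neuronal firing, measured 8.12, 6.55, 10.0, 5.29 and 6.21 RPM in WTNT and 9.11, 6.33, 7.22, 3.60 and 5.86 RPM in TGNT rats. The groups overlapped over most of their range, and each held 1 rat of 9 RPM or more. The log2 fold change was -0.17 (SE 0.222, 95% interval -0.64 to 0.30), with p = 0.532 by exact permutation. The values rest on 27 to 79 counts per rat, and the difference was smaller than the spread within either group.

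Fosl1 encodes Fra-1, and Fosl2 encodes Fra-2, which both lack the strong activation domain of Fos. Fosl1 measured 4.64, 4.60, 3.17, 6.15 and 4.62 RPM in WTNT and 4.99, 3.92, 2.28, 3.74 and 4.11 RPM in TGNT rats, with 18 to 45 counts per rat. The groups overlapped, and the difference of -0.26 on the log2 scale (SE 0.220, 95% interval -0.73 to 0.21) had p = 0.254 by exact permutation. Fosl2 measured 23.0, 16.2, 23.5, 16.9 and 28.0 RPM in WTNT and 25.8, 25.0, 25.6, 15.5 and 18.1 RPM in TGNT rats. In both groups 3 rats lay at 23 RPM or above and 2 lay below 19 RPM. Its log2 fold change was 0.04 (SE 0.170, 95% interval -0.32 to 0.41), with p = 0.841 by exact permutation.

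On the Jun side, Jun measured 121, 99.9, 98.5, 102 and 128 RPM in WTNT and 155, 114, 135, 96.8 and 108 RPM in TGNT rats. The 2 highest values were those of TGNT rats and so was the lowest, and the groups overlapped. Jun had a log2 fold change of 0.16 (SE 0.115, 95% interval -0.09 to 0.40), with p = 0.373 by exact permutation. Junb, an immediate early gene whose product is a weaker activator than Jun, measured 27.8, 23.1, 25.1, 26.6 and 23.7 RPM in WTNT and 26.3, 26.2, 17.4, 18.6 and 18.3 RPM in TGNT rats. In TGNT rats 3 values lay below all WTNT values and 2 lay within the upper part of the WTNT range. Its log2 fold change was -0.24 (SE 0.125, 95% interval -0.50 to 0.03), with p = 0.119 by exact permutation. Jund measured 95.5, 78.0, 82.2, 76.8 and 89.4 RPM in WTNT and 89.1, 101, 78.1, 64.2 and 68.7 RPM in TGNT rats. The TGNT rats spanned a wider range that took in that of the WTNT rats. For Jund the log2 fold change was -0.07 (SE 0.110, 95% interval -0.30 to 0.17), with p = 0.579 by exact permutation.

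In the treatment comparison Fos and Fosb were higher in TGTR than in TGNT rats at an unadjusted p under 0.05 by edgeR, and Junb was next. Fosl1 and Jun had log2 fold changes below 0, at -0.34 and -0.05. No member passed the adjusted test, in which 0% of all genes were called. The 2 members of 7 at that unadjusted level stand beside 2.98% of all genes that were higher in TGTR rats, and 0 of 7 beside 1.93% that were lower. Of the genes that averaged 10 counts or more, as all 7 members did, 3.9% were higher and 2.24% lower. A log2 fold change above 0 was found for 5 of 7 members and for 50.1% of the 12029 genes that averaged 10 counts or more. No member had groups without overlap, as 0.806% of those genes did with TGTR rats higher and 0.648% with TGTR rats lower.

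Fos measured 3.24, 3.68, 2.71 and 4.88 RPM in the 4 TGNT rats, and 2.92, 6.76 and 9.57 RPM as the lowest, median and highest of the 6 TGTR rats. The groups overlapped, since the highest TGNT rat was above 2 of the TGTR rats, replicates 1 and 4 at 4.50 and 2.92 RPM. Means were 3.63 ± 0.925 (SD, n = 4) and 6.65 ± 2.64 RPM (SD, n = 6). The log2 fold change was 0.88 (SE 0.306, 95% interval 0.22 to 1.54, 1.84-fold), with an unadjusted p of 0.0133 and an adjusted p of 0.964 by edgeR's quasi-likelihood test. By exact permutation of the RPM p was 0.0762. The counts behind Fos were 36 to 53 per TGNT rat and 37 to 118 per TGTR rat.

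Fosb measured 12.4, 10.1, 12.3 and 11.1 RPM in TGNT rats, and 12.3, 13.6 and 15.5 RPM as the lowest, median and highest in TGTR rats. All but 1 of the TGTR rats, 5 of 6, were above the highest TGNT rat. Means were 11.5 ± 1.08 (SD, n = 4) and 13.8 ± 1.08 RPM (SD, n = 6), and the log2 fold change was 0.26 (SE 0.0925, 95% interval 0.06 to 0.46, 1.20-fold). The unadjusted p was 0.0135 and the adjusted p 0.964 by edgeR, and the exact permutation p was 0.0238, where 0.00476 is the smallest that 4 rats against 6 can give. Fosb was thus lower in TGNT rats than in the other group of both comparisons, in different TGNT libraries whose tables were normalized apart. The fold changes of the comparisons were not set against each other in a test.

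Fosl1 measured 4.47, 4.45, 7.66 and 5.34 RPM in TGNT rats, and 2.99, 4.30 and 5.68 RPM as the lowest, median and highest in TGTR rats. In TGTR rats 4 of 6 lay below every TGNT rat, opposite in direction to Fos, and the overlap came from the other 2. Fosl1 had a log2 fold change of -0.34 (SE 0.207, 95% interval -0.78 to 0.11), with p = 0.190 by exact permutation, and it was -0.13 without TGNT replicate 3, the rat at 7.66 RPM. Fosl2 measured 26.2, 21.8, 17.9 and 14.4 RPM in TGNT rats, and 17.9, 20.9 and 27.2 RPM as the lowest, median and highest in TGTR rats. The groups overlapped throughout, with a log2 fold change of 0.10 (SE 0.157, 95% interval -0.24 to 0.44) and p = 0.610 by exact permutation.

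Junb measured 22.7, 31.7, 26.8 and 30.9 RPM in TGNT rats, and 25.7, 35.0 and 39.7 RPM as the lowest, median and highest in TGTR rats. Of the TGTR rats 4 of 6 were above the highest TGNT rat, and replicates 4 and 5, at 25.7 and 27.6 RPM, lay among the TGNT rats. For Junb the log2 fold change was 0.27 (SE 0.133, 95% interval -0.01 to 0.56), with p = 0.0613 by edgeR and p = 0.148 by exact permutation. Jun measured 159, 154, 152 and 128 RPM in TGNT rats, and 130, 139 and 167 RPM as the lowest, median and highest in TGTR rats. Jund measured 103, 120, 108 and 99.3 RPM in TGNT rats, and 91.2, 112 and 126 RPM as the lowest, median and highest in TGTR rats. The groups overlapped for both, and the log2 fold changes of -0.05 for Jun (SE 0.0760, 95% interval -0.22 to 0.11) and 0.05 for Jund (SE 0.0824, 95% interval -0.13 to 0.23) had exact permutation p of 0.548 and 0.624. The intervals of Jun and Jund were the narrowest of the family here, and both lay within 1.5-fold either way.

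**Figure D2:**
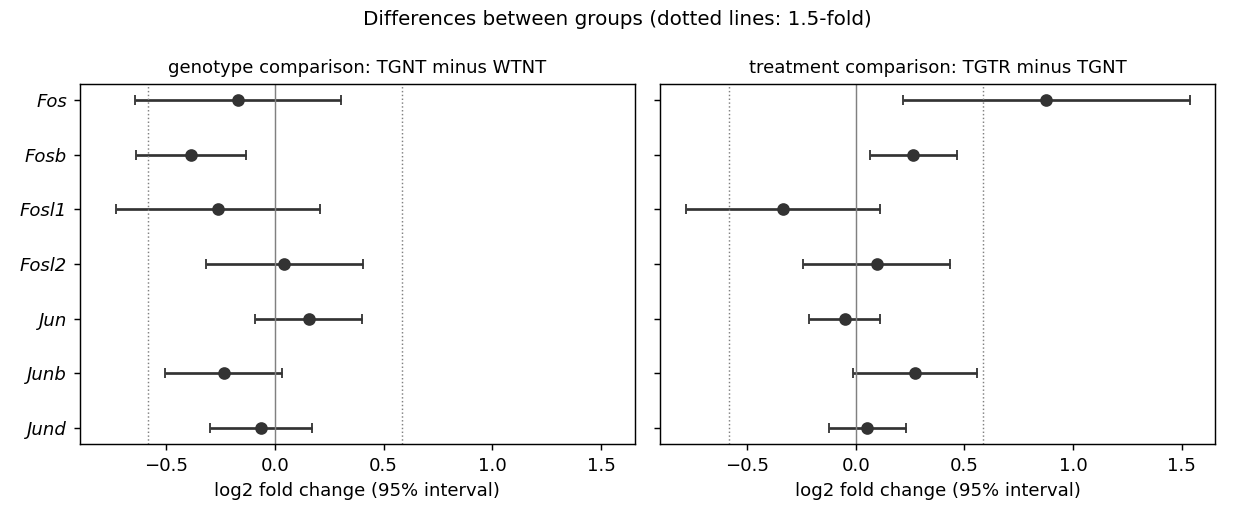
Log2 fold change of each Fos and Jun gene, TGNT minus WTNT (left, n = 5 each) and TGTR minus TGNT (right, n = 6 and 4), from edgeR's fit over all genes. Points are the estimates, bars the 95% intervals without adjustment for the number of genes, the solid line 0 and the dotted lines a 1.5-fold change. Intervals exclude 0 for Fosb on the left (-0.64 to -0.13) and for Fos (0.22 to 1.54) and Fosb (0.06 to 0.46) on the right.

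Both TGTR rats at the low end of Junb stood apart in markers of other tissue. The summed RPM of blood markers (chiefly the haemoglobins) was 1751 in TGTR replicate 4 and 336 in the next TGTR rat, with 208 to 323 in TGNT rats. The summed RPM of choroid plexus markers was 2858 in TGTR replicate 5, 138 in the next, replicate 6, and 3.53 to 7.02 in the other TGTR rats, against 7.97 to 18.3 in TGNT rats. Among genes that averaged 10 counts or more, 8 of 8 choroid plexus genes and 6 of 6 blood genes had a log2 fold change above 0, with medians of 3.10 and 1.03. TGTR replicate 4 had the lowest Fos, Fosb and Junb and the highest Fosl1 of its group, and replicate 5 the lowest Jun and Jund.

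Leaving out both rats was an alternative chosen after the values were seen, and these rats held the lowest Junb of their group. With both left out, the groups of Fosb and Junb did not overlap, which the choice of rats fixed. For Junb the rats left out were the only TGTR rats not above every TGNT rat, and for Fosb replicate 4 was the only one. With every rat kept no member had groups without overlap. The share of all genes without overlap among the remaining rats was not computed. The log2 fold changes were then 1.04 for Fos, 0.31 for Fosb and 0.41 for Junb, with unadjusted p of 0.00157, 0.00803 and 0.00159 and an adjusted p of 1 each by edgeR. Exact permutation gave p = 0.0571 for Fos and p = 0.0286 for Fosb and Junb. The latter is the smallest that 4 against 4 rats can give, and groups without overlap always reach it. Since the rats were chosen after the values were seen, these p and those of edgeR are a description and no test. At an unadjusted p under 0.05 there were then 3 members of 7 higher, beside 3.08% of the 12029 genes, against 3.9% of them with every rat kept. Replicate 6 was kept, although its choroid plexus markers summed to 138 RPM, and it had the highest Fos of its group, at 9.57 RPM. The part that blood or choroid plexus RNA has in the values of these TGTR rats was not tested.

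In several marker lists of the hippocampus itself, the log2 fold changes lay mostly on one side of 0. Between genotypes, 7 of 7 oligodendrocyte genes were below 0 (median log2 fold change -0.19), as were 5 of 5 dentate gyrus granule cell genes (median -0.13) and 5 of 5 CA1 pyramidal cell genes (median -0.15). All 7 of 7 microglia genes were above 0. Their summed levels were 176 to 185 RPM in the WTNT group and 179 to 199 RPM in the TGNT group. Exact permutation of the microglia sums gave p = 0.0397, without adjustment for the number of lists. For the sums of the other lists between genotypes it gave p from 0.198 (neuron) to 0.968 (blood). With treatment, p by exact permutation ran from 0.1 (endothelium) to 0.733 (choroid plexus). Genes of 1 cell type can vary together, so a count such as 7 of 7 is no test. Summed dentate gyrus markers ranged from 200.5 to 458 RPM in the WTNT group and from 269.6 to 430.1 RPM in the TGNT group, and summed CA1 markers from 551 to 787 and from 414 to 752 RPM. Between TGTR and TGNT rats, 7 of 7 oligodendrocyte genes (median 0.22) and 6 of 6 endothelial genes (median 0.18) were above 0, while 6 of 7 microglia genes and 7 of 7 astrocyte genes were below 0 (medians -0.03 and -0.05). Summed neuron markers lay between 10243 and 11492 RPM in the WTNT group and between 9958 and 11097 RPM in the TGNT group of the genotype comparison, and between 8240 and 9870 RPM (TGNT) and 7510 and 9164 RPM (TGTR) with treatment. Of the remaining lists between genotypes, 6 of 8 neuron genes (median -0.06) and 4 of 6 endothelial genes (median -0.03) were below 0, and 4 of 7 astrocyte genes (median 0.03), 4 of 5 blood genes (median 0.03) and 1 of 2 choroid plexus genes were above 0. With treatment, 7 of 8 neuron genes (median -0.04) and 3 of 5 dentate gyrus genes (median -0.05) were below 0, and 4 of 5 CA1 genes (median 0.16) were above 0. The part of these cell types in the values of the Fos and Jun genes was not tested.

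The members differed widely in how much rats of the same group varied. The pooled within-group SD of log2(RPM + 1) was 0.370 for Fos in the genotype comparison and 0.471 in the treatment comparison, above 93.3% and 97.4% of the genes that averaged 10 counts or more. For Fosb it was 0.152 and 0.114, near the middle of all genes at percentiles of 45.5 and 41.3. Fosl1 and Fosl2 lay between the 86.2 and 89.4 percentiles in both comparisons. Jun was at percentiles of 72.1 and 49.6, Junb at 69.1 and 82.6, and Jund at 67.5 and 57.3. The median SD of all genes was 0.162 and 0.130. Low counts add to the SD of Fos and Fosl1, and the share that counting error takes was not separated.

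Across rats of the same group, Fosl2 and Jun were high and low together. With the group means removed, Pearson's r of log2(RPM + 1) over 10 rats was 0.78 in the genotype comparison (permutation p = 0.0133) and 0.83 in the treatment comparison (permutation p = 0.00538). Spearman's rho was 0.83 (permutation p = 0.00694) and 0.79 (permutation p = 0.00775). Without the 2 rats farthest from the median of Fosl2, r was 0.66 and 0.74. After Benjamini-Hochberg adjustment over 42 relations, 21 pairs of members in each comparison, the permutation p was 0.221 for both r and 0.163 for both rho, and no relation had an adjusted p under 0.05.

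Fos and Fosb had an r of 0.72 in the genotype comparison (permutation p = 0.0336, rho 0.64, permutation p = 0.0630) and 0.46 in the treatment comparison (permutation p = 0.190, rho 0.36, permutation p = 0.323). Without the 2 rats farthest from the median of Fos these r were 0.45 and 0.13. Leaving out such rats narrows the range of Fos, so the fall in r does not tell whether the relation rested on them. Fos and Fosl1 went in opposite directions in the treatment comparison, with an r of -0.69 (permutation p = 0.0321, rho -0.65, permutation p = 0.0496), and -0.55 without the 2 farthest rats. In the genotype comparison their r was -0.29 (permutation p = 0.441, rho -0.10, permutation p = 0.805). The adjusted permutation p of r was 0.282 for Fos with Fosb in the genotype comparison and for Fos with Fosl1 in the treatment comparison, and 0.495 and 0.670 for the other 2 values.

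**Figure D3:**
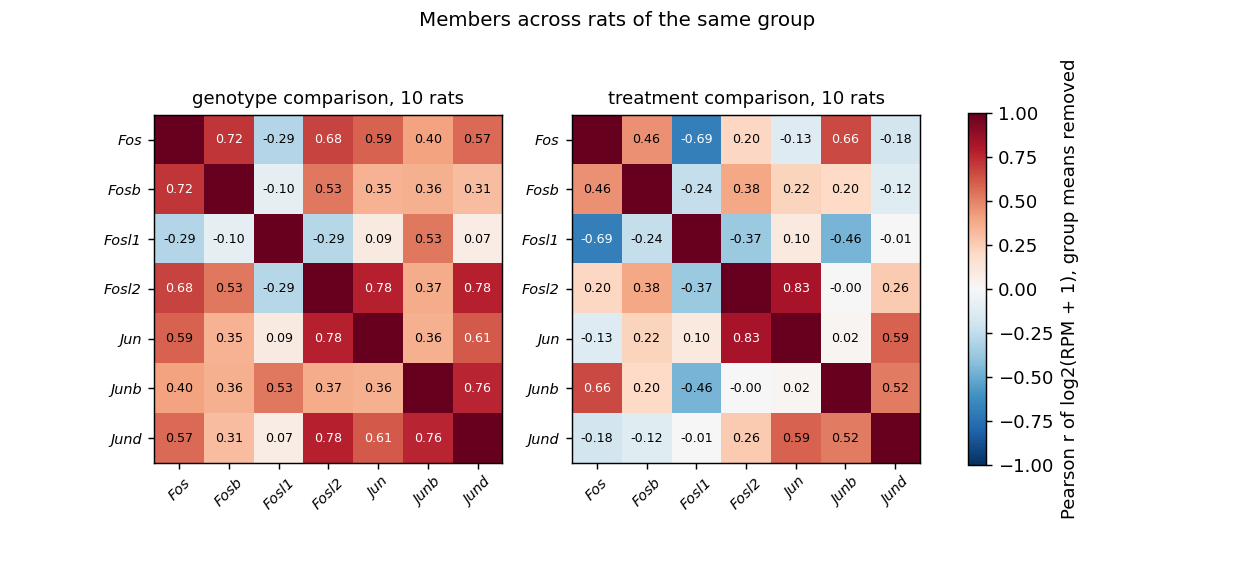
Pearson's r between pairs of Fos and Jun genes over 10 rats of the genotype comparison (left) and 10 of the treatment comparison (right), computed on log2(RPM + 1) with group means removed. The colour runs from -1 (blue) to 1 (red), and each cell prints its r. Fosl2 with Jun is the pair with r over 0.7 in both panels (0.78 and 0.83).

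The genes whose values followed each member most closely were taken from 11339 genes by the lower of their 2 within-group r, over 10 rats in each comparison, as a description with no test. For Fos they were Ppm1f (r = 0.86 and 0.87), Bmf (0.82 and 0.82) and Dusp1 (0.81 and 0.94). Dusp1 encodes a phosphatase that inactivates MAP kinases and is itself an immediate early gene. For Fosb they were Lcmt1 (0.86 and 0.77), Klc4 (0.67 and 0.68) and Gpr165 (0.66 and 0.70), and for Junb they were Map1lc3a (0.79 and 0.81), Rangap1 (0.78 and 0.80) and Armc6 (0.77 and 0.78). Closer still were those of Fosl2, which were Nrsn2 (0.94 and 0.96), Crym (0.93 and 0.93) and Ly6h (0.92 and 0.92), those of Jun, which were LOC365985 (0.94 and 0.92), Ptprn (0.89 and 0.90) and Ntng2 (0.89 and 0.90), and those of Jund, which were Abhd8 (0.95 and 0.95), Dctn1 (0.92 and 0.92) and Slc39a3 (0.91 and 0.94). Fosl1 had Daxx (0.76 and 0.73), Erlin1 (0.71 and 0.70) and Asb13 (0.70 and 0.87). These r are the highest of many and are not comparable with those of the pairs of members, which were not searched for.

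Genes around AP-1 were read in 6 lists, keeping genes that averaged 10 counts or more. The lists of other immediate early transcription factors and of activity-regulated effector genes stand beside the AP-1 pathway and are not part of it. The quasi-likelihood test of edgeR called no gene of any list in either comparison. Of the other tests, edgeR's exact and likelihood ratio tests called 1 list gene, Egr2, between genotypes and none with treatment, and DESeq2 and limma called none. Among other immediate early transcription factors, 5 of 17 were lower and 0 higher than in WTNT rats at an unadjusted p under 0.05, beside 1.9% lower and 1.99% higher of all genes with such counts. Over the whole list 7 of 17 had a log2 fold change above 0 and 10 below, beside 52.4% above 0 over all such genes, and the median was -0.10, against 0.01 over all of them. Egr2, a zinc finger factor that the study itself singled out from these libraries, measured 7.95 ± 1.71 RPM in WTNT and 3.94 ± 1.13 RPM in TGNT rats (SD, n = 5 each), with a log2 fold change of -1.01 (SE 0.212). Nr4a1, an orphan nuclear receptor, measured 47.0 ± 7.93 and 34.1 ± 2.27 RPM (SD, n = 5 each), with a log2 fold change of -0.46 (SE 0.105). Their unadjusted p were 0.000253 and 0.000543, and both had an adjusted p of 1 by edgeR's quasi-likelihood test. The call of Egr2 depended on the test: its adjusted p was 0.0216 by edgeR's exact test and 0.0168 by its likelihood ratio test, which both called it, 0.0701 by DESeq2 and 1 by limma on log2(RPM + 1). For 3 genes of the list, Egr2, Nr4a1 and Nr4a3, no TGNT rat reached the lowest WTNT rat, as held for 0.317% of all genes with such counts.

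Activity-regulated effector genes, the proteins that immediate early factors and firing bring on at synapses and in signalling, had 6 of 25 lower and 1 higher in TGNT rats at the same level, with 18 of 25 below 0 and a median log2 fold change of -0.12. Arc, which drives the removal of AMPA receptors from synapses, measured 102 ± 28.8 RPM in WTNT and 71.9 ± 10.3 RPM in TGNT rats (SD, n = 5 each), with a log2 fold change of -0.50 (SE 0.165). Dusp1 was the gene on the other side, at 19.0 ± 3.03 and 26.5 ± 6.46 RPM (SD, n = 5 each), with a log2 fold change of 0.49 (SE 0.158). The unadjusted p were 0.00843 and 0.00728 by edgeR.

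**Figure D4:**
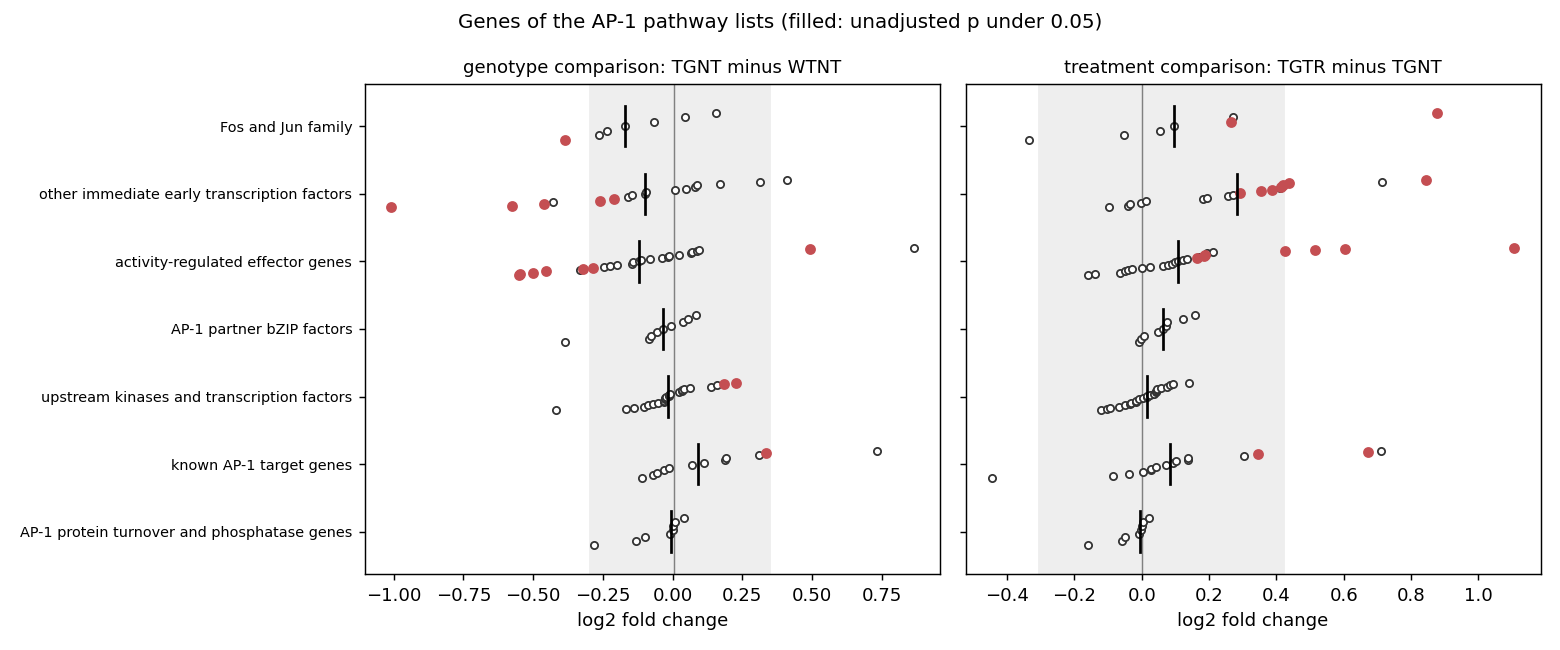
Log2 fold changes of the genes that averaged 10 counts or more in the Fos and Jun family and 6 lists of genes around AP-1, TGNT minus WTNT (left) and TGTR minus TGNT (right). Each point is a gene, filled at an unadjusted p under 0.05, the black ticks are list medians, and the grey band spans the middle 95% of all genes with such counts. Immediate early transcription factors have a median of -0.10 on the left and 0.28 on the right.

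In the treatment comparison 7 of 18 other immediate early transcription factors were higher in TGTR rats at an unadjusted p under 0.05 and 0 lower, beside 3.9% higher and 2.24% lower of all genes with such counts. Over the whole list 14 of 18 had a log2 fold change above 0, beside 50.1% of all such genes, and the median was 0.28, against 0.00 over all of them. Nr4a2 measured 49.0 ± 10.3 RPM in TGNT (SD, n = 4) and 66.2 ± 7.39 RPM in TGTR rats (SD, n = 6), and Ier5 38.5 ± 7.73 and 51.4 ± 4.37 RPM. Their log2 fold changes were 0.44 (SE 0.119) and 0.42 (SE 0.110), with unadjusted p of 0.00275 and 0.00224 and adjusted p of 0.941 and 0.913 by edgeR. Egr4 was the gene of the list whose groups did not overlap, at 13.9 ± 0.843 (SD, n = 4) and 18.5 ± 2.93 RPM (SD, n = 6), as 0.806% of all genes with such counts did on that side. Egr4, like Nr4a3 above, was picked out after its values were seen.

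Effector genes were higher for 7 of 25 and lower for 0 at that level, with 18 of 25 above 0 and a median log2 fold change of 0.11. Homer1, a scaffold of the postsynaptic density, measured 131 ± 6.52 in TGNT (SD, n = 4) and 149 ± 6.45 RPM in TGTR rats (SD, n = 6), with a log2 fold change of 0.19 (SE 0.0496). Dusp1 measured 12.1 ± 2.11 and 18.4 ± 5.19 RPM, with a log2 fold change of 0.60 (SE 0.203). The unadjusted p were 0.0024 and 0.0107 by edgeR. Without TGTR replicates 4 and 5, which stand farthest apart in blood and choroid plexus markers, 10 of 18 immediate early transcription factors and 9 of 25 effector genes were at that level. All of them were higher, beside 3.08% of all genes with such counts. These rats were left out after the values were seen, so the counts are a description and no test. Replicate 6, at 138 RPM of choroid plexus markers, was kept.

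There were 5 genes at an unadjusted p under 0.05 in both comparisons among the 95 of the 6 lists, or 5.26%, beside 31 (0.273%) of the 11343 genes that averaged 10 counts or more in both tables. Lower and then higher were 4 of the 95 and 8 (0.0705%) of all. The lists were chosen with earlier results of these data known, and the study had singled out Egr2 from these libraries. The shares of the lists are therefore a description and no independent test. Egr2 (log2 fold changes of -1.01 and 0.84), Egr1 (-0.58 and 0.39), Arc (-0.50 and 0.51) and Vgf (-0.28 and 0.19) were lower in TGNT than in WTNT rats and higher in TGTR than in TGNT rats. Dusp1 (0.49 and 0.60) was higher in the second group of both. Fosb had the pattern of the former 4, with -0.39 and 0.26. Egr1 and Vgf were picked out after their values were seen.

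The other 4 lists held few genes at that level. The bZIP factors that can pair with Fos or Jun proteins had 0 of 9 in both comparisons, with medians of -0.03 and 0.06. Batf3 had a mean of 0.3 counts between genotypes and is given no fold, and in the treatment comparison Atf3, which averaged 7.2 counts and is not among the 9, measured a log2 fold change of 0.51 (unadjusted p = 0.171 by edgeR) and Nfe2l2 0.12 (unadjusted p = 0.216 by edgeR). Of the upstream kinases and transcription factors 2 of 24 were on the higher side in TGNT rats, beside 1.99% of all genes with such counts, the kinases Mapk3 (ERK1) at 0.23 and Rps6ka5 (MSK1) at 0.19, and 0 of 24 were at that level in the treatment comparison, with medians of -0.02 and 0.02. The lowest p there were those of Crtc2, at -0.12, and Map2k2, at -0.10.

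Known AP-1 target genes had 1 of 12 higher with the transgenes and 2 of 16 higher with treatment, beside 1.99% and 3.9% of all genes with such counts, with medians of 0.09 and 0.08. The matrix metalloprotease gene Mmp9 measured log2 fold changes of 0.73 (unadjusted p = 0.0523 by edgeR) and 0.67 (unadjusted p = 0.0361 by edgeR), the calcium buffer gene Calb1 0.33 between genotypes (unadjusted p = 0.0397 by edgeR) and the hyaluronan receptor gene Cd44 0.34 with treatment (unadjusted p = 0.00341 by edgeR). Genes for the turnover and dephosphorylation of AP-1 proteins had 0 of 8 in both comparisons and medians of 0.00. Among them Rfwd2, which encodes the ubiquitin ligase COP1, measured -0.10 and Det1 -0.28 between genotypes, and Det1 -0.16 and the kinase gene Csnk2a1 -0.06 with treatment.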

How the data were processed

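Hippocampal mRNA of 20 female rats was sequenced from stranded libraries, 1 library per rat, and the authors deposited 2 tables per comparison. One holds estimated counts per gene symbol, not normalized. The other holds RPM, a signal that the authors scaled by the TMM method within each table of 10 rats. The submitters' processing notes name bcl2fastq 2.17, Bowtie2 2.1.0, RSEM 1.2.15, edgeR and the build rn6 without saying which step each served, and the annotation is not given in the sources used here. Columns were matched to rats by title, and 0 columns were left without a sample. Nothing says that rats were pooled, and no pair of libraries within a table (90 pairs) was alike within sampling noise. The lowest squared difference per gene, relative to its sampling variance, was 2.16 within a table and 53.0 between TGNT rats of different tables (20 pairs). With tables so far apart, the check between them cannot show whether a rat gave a library to both. Rats of different tables are taken as different by their titles.

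The deposited estimated counts were rounded to whole numbers for edgeR 4.0.16 under R 4.3.3 (TMM, quasi-likelihood test, all 17168 genes, 2 groups at a time), with Benjamini-Hochberg adjustment. A gene was called when its adjusted p was under 0.05 with a change of 1.5-fold or more. The estimates of the 7 members were whole numbers in every rat. In the genotype comparison 2 genes were called, App among them. RPM of single genes were compared by permuting the rats exactly between groups (two-sided, difference of means). Relations between members used log2(RPM + 1) with group means removed and permutation of rats within groups. P-values set a difference between groups, or a relation between members, against the variation between rats. The depth of 5848458 to 14175594 counts per library limits the precision of Fos and Fosl1 most.

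The members, gene lists (6 of genes around AP-1, called the pathway lists, and 9 of cell types, which were neuron, dentate gyrus granule cell, CA1 pyramidal cell, astrocyte, oligodendrocyte, microglia, endothelium, choroid plexus and blood) and tests were chosen with earlier results of these data known. Named genes were the 7 members, called genes and the 2 genes with the lowest p of each pathway list and comparison, and the 3 genes most like each member. Some genes under this rule are not reported here. As alternatives, the likelihood ratio and exact tests of edgeR were run, with DESeq2 1.42.0, limma 3.58.1 on log2 RPM with 1 or 0.1 added, other scalings, filters on low counts, a replicate block and fits without each rat. The fit across genes was tested on simulated data.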

Additional observations from a re-analysis of the deposited data

Results flagged for a closer look

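In a test of each group of 4 to 6 rats for a single value far from the others, 3 of 64 groups stood out, where chance gives about 1 in 20, or 3.2. That rate counts flags and takes no account of how far a value lay from the others. None of the 28 groups of Fos and Jun values was among them. The 3 were all marker sums of TGTR rats. TGTR replicate 4 had 1751 RPM of blood markers, and the next TGTR rat 336 RPM. TGTR replicate 5 had 2858 RPM of choroid plexus markers, and the next 138 RPM. The same rat had 216 RPM of microglia markers, below the next at 238 RPM. Replicate 4 was also the lowest TGTR rat for Fos, at 2.92 RPM, Fosb, at 12.3 RPM, and Junb, at 25.7 RPM.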

How the results depend on the processing

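No member was called under any of 20 alternatives in the genotype comparison and 21 in the treatment comparison, and the lowest adjusted p of a member was 0.778 (edgeR without WTNT replicate 3) and 0.516 (edgeR without TGNT replicate 1). Log2 fold changes kept their direction in all of these but for Fosl2. Between genotypes Fosl2 ranged from -0.053 (without WTNT replicate 2) to 0.16 (without WTNT replicate 5) and was below 0 in 5 of these fits, and with treatment it ranged from -0.032 (without TGNT replicate 4) to 0.25 (without TGNT replicate 1), so that its direction rests on single rats. Leaving out each rat in turn gave -0.45 to -0.33 for Fosb between genotypes, and 0.20 to 0.30 for Fosb, 0.74 to 1.05 for Fos and 0.19 to 0.34 for Junb with treatment. Between genotypes Fos was -0.33 when TGNT replicate 1 was left out and -0.03 when WTNT replicate 3 was, and single rats moved Fosl1 from -0.39 (without WTNT replicate 3) to -0.13 (without TGNT replicate 3) between genotypes and from -0.43 (without TGTR replicate 4) to -0.13 (without TGNT replicate 3) with treatment. Over all genes, edgeR's exact test, its likelihood ratio test, DESeq2 and limma called 4, 4, 2 and 2 genes between genotypes against 2, and 3, 5, 3 and 0 with treatment against 0. As alternatives added after the values were seen, these tests were also counted over the pathway lists: the exact and likelihood ratio tests each called 1 immediate early transcription factor, Egr2, between genotypes, against 0.

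Rats of the same replicate number had correlations of their deviations from -0.21 to 0.34 between genotypes and from -0.58 to 0.14 with treatment. WTNT replicates 1 and 3 correlated best with the TGNT rat of their own number, and the other replicates did not. Whether replicate numbers pair the rats was not tested. With a replicate block, 0 members were called in either comparison, genes called were 2 and 0, and those at an unadjusted p under 0.05 were 553 (554 without the block) and 406 (843 without it). The treatment fit with the block could use replicates 1 to 4 of each group alone, and gave 0.61 for Fos and 0.26 for Fosb. Depth limits Fos and Fosl1, with as few as 27 and 18 counts in a rat.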
